A study of Coturnix japonica with 19 samples.

Results

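Integrins and laminins were followed in the pituitary gland of Japanese quail as 29 of the 19562 gene symbols in the deposited table. Members were taken by symbol, whatever their level, where the table listed them. The rule covered integrin alpha subunits with a numbered symbol, ITGAE, ITGAV and ITGAX, the beta subunits ITGB1 to ITGB8, and the numbered laminin chains. They comprised 10 integrin alpha subunits, 7 integrin beta subunits, 5 laminin alpha chains, 4 laminin beta chains and 3 laminin gamma chains. ITGA5 and ITGB7 fall under the rule but were not listed under those symbols. Symbols outside the rule were not analysed here.

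Integrins are receptors that span the cell membrane. Each is made of an alpha and a beta subunit, and it binds matrix proteins outside the cell and, through adaptor proteins such as talin, the cytoskeleton inside it. Laminins are secreted trimers of an alpha, a beta and a gamma chain. They assemble into the basement membrane, the thin sheet of matrix that lies under epithelia and around muscle fibres, nerves and capillaries. In the pituitary, basement membranes enclose the cords of hormone cells and the capillaries that drain them, and in the rat, folliculostellate cells, the non-endocrine supporting cells of the gland, carry integrin beta 1 and attach to laminin.

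The libraries came from 19 birds, 1 library a bird. Adults were males taken at 5 weeks of age, kept for 2 weeks under a long photoperiod and then moved to short days. One group of 5 adults was collected after 8 weeks under 8L (8 h of light a day), and another group of 5 was transferred back to 16L (16 h of light a day) and collected after 8 weeks there. Juveniles were kept from hatching under a long photoperiod for 5 days, then under 16L (4 birds) or 8L (5 birds) for a further 5 days, and were collected on posthatch day 10. The study's table of birds lists replicates 2 and 4 of the juvenile 16L group and replicate 2 of the juvenile 8L group as female. Age was therefore joined to the length of the exposure, and their parts in a difference between juveniles and adults cannot be told apart. Age was also partly joined to sex, as females were only among the juveniles, and a fit on the listed males is given for ITGB1. Adult 16L birds were collected at a greater age than adult 8L birds, so photoperiod and age cannot be told apart between the adult groups. The tissue was pituitary, including the pars distalis, taken from the sella turcica, the bony cup of the skull base, and the pars tuberalis stayed with the hypothalamus. Whole tissue was read, so fewer cells of a type and less RNA per cell cannot be told apart.

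Library totals ran from 90599 to 4796665 estimated counts, with 5 libraries under 200000. The median total was 1249359 in adult 16L birds, 1042268 in adult 8L birds, 215565 in juvenile 16L birds and 408050 in juvenile 8L birds. Levels are given as CPM, counts per 1000000 after scaling by TMM factors, and 1 count was worth between 0.208 and 10.1 CPM. The 6 pituitary hormone genes checked (GH, PRL, POMC, CGA, TSHB and FSHB) summed to between 13085 and 54589 CPM in adults and between 29522 and 100510 CPM in 7 of the 9 juveniles. The remaining juveniles, replicates 1 and 5 of the 8L group, reached 2609 and 6921 CPM. The same libraries held 15822 and 12421 CPM of 10 bone matrix genes (COL1A1, SPP1, IBSP and others), against 97.1 to 4599 CPM in the other juveniles and 22.2 to 47.1 CPM in adults. They also held 4049 and 995.9 CPM of 11 cartilage genes, against at most 97.0 CPM in any other library. The tests of ITGB1, ITGB3, ITGA11 and LAMC1, where these birds were high, are given with and without them. These birds also held the highest values of ITGA1 and of ITGB5, at 15.7 and 14.2 CPM for each gene. Their ITGA8 levels, 15.7 and 16.6 CPM, were the highest among juveniles, and replicate 5 had the highest LAMB1 level (16.6 CPM). Fits of ITGA1, ITGB5, ITGA8 and LAMB1 without both birds are not given.

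A property of the table bears on every value below. The 29 members were listed as 81 transcripts, and 17 members had several. Where a member had several, its transcripts carried counts within 1 of each other in 138 of 202 gene and library pairs with a count, a pattern that arises when a read is counted for each transcript it aligns to, although counts of 0 and 1 lie within 1 of each other in any case. The 6 transcripts of LAMA2 agreed within 1 count in each of the 18 libraries with a count, and the 2 transcripts of LAMA4 in all 19. A sum over transcripts then counts a read several times. The sum came to between 1.19 times (ITGB1) and 6.53 times (ITGB4) the count of the highest transcript. Values below are sums unless stated otherwise, and the highest transcript of a gene in a library is given beside them as the closer count of reads. CPM is not scaled by gene length, so that levels are compared between birds and never between genes.

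**Figure D1:**
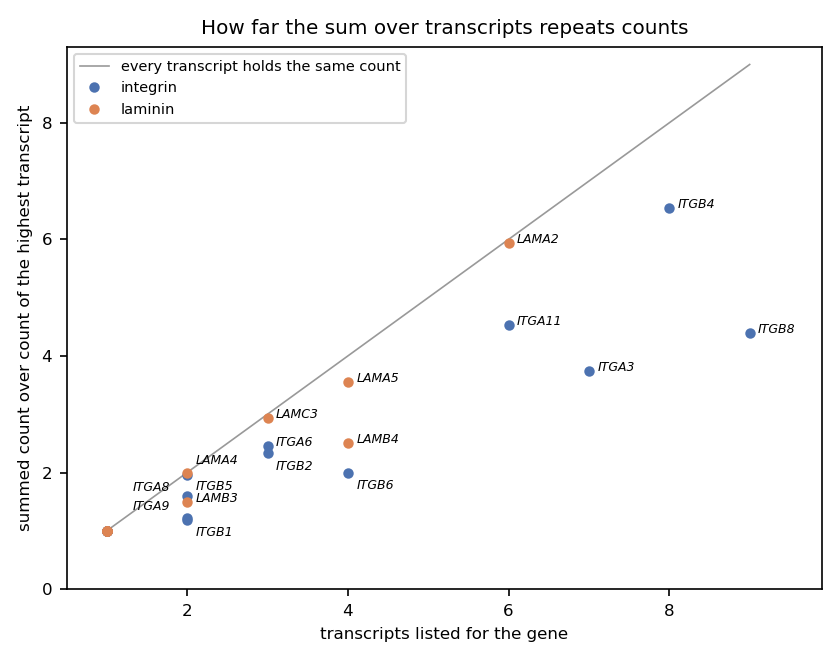
Each point is 1 of 28 members: the horizontal axis gives the number of transcripts listed for the gene and the vertical axis the summed count divided by the count of the highest transcript, both over 19 libraries. The grey line marks equal counts on every transcript, and LAMA2 with 6 transcripts (ratio 5.93) and LAMA4 with 2 (ratio 2.00) lie on it, while ITGB1 with 2 (ratio 1.19) lies well below.

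The members were thinly read. The highest-transcript count over all libraries was as low as 2 for ITGA7, 3 for ITGB2, 2 for ITGB6 and 4 for LAMB3. Only 3 members, ITGA6, LAMA4 and LAMC1, had a count in every library. Of the 29 members, 20 to 26 had a count in the adult 16L libraries, 11 to 24 in the adult 8L libraries, 8 to 16 in the juvenile 16L libraries and 10 to 20 in the juvenile 8L libraries. The 3 shallowest libraries (91030, 90599 and 128509 counts) held the fewest, with 8, 10 and 11 members, and the library of 4796665 counts held the most, with 26.

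**Figure D2:**
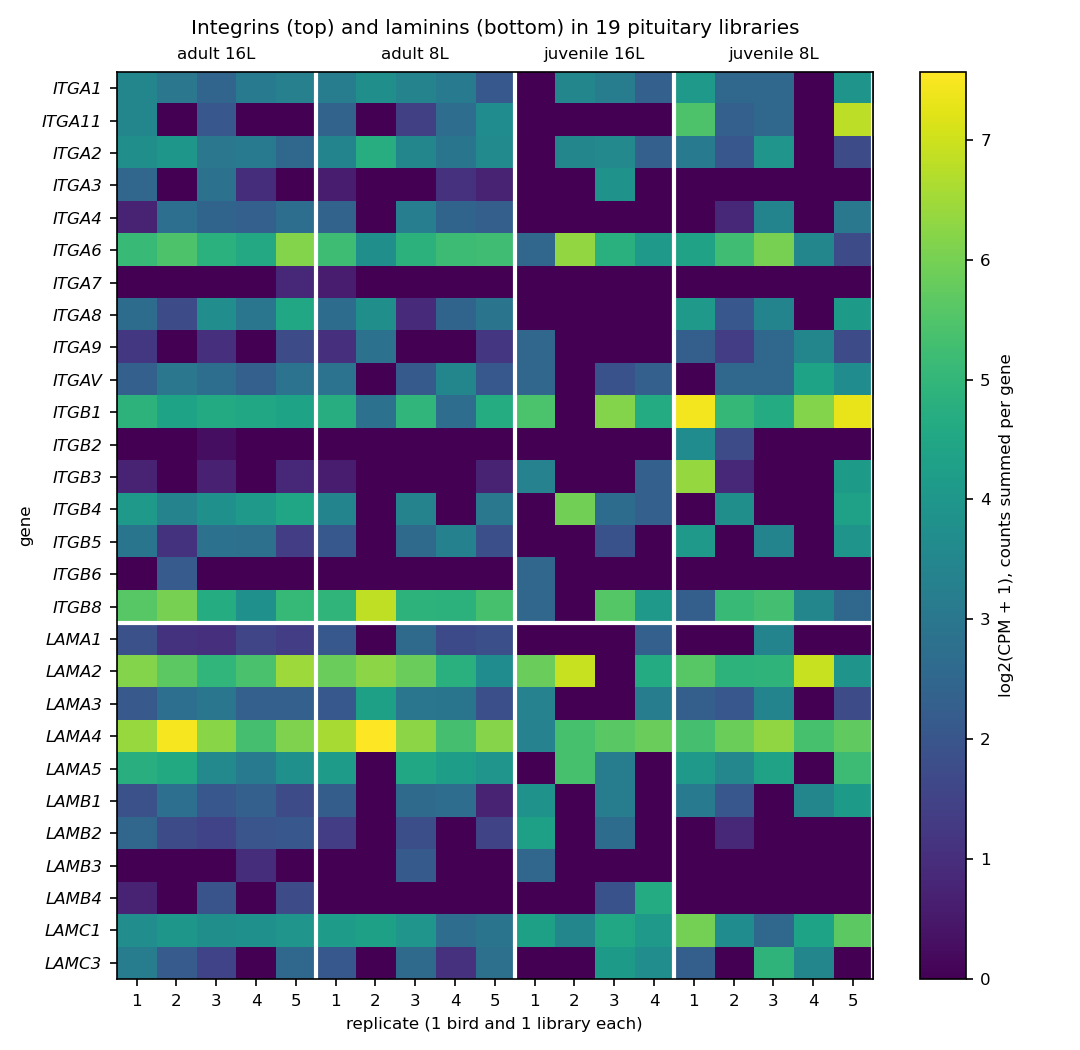
The colour gives log2(CPM + 1) of each of 28 members (rows, integrins above and laminins below the white line) in each of the 19 libraries (columns, grouped by age and photoperiod). Members such as ITGA6, LAMA4 and LAMC1 were counted in every library, and the 2 brightest ITGB1 cells are juvenile 8L replicates 1 and 5 at 172.6 and 158.5 CPM.

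ITGB1 encodes integrin beta 1, the shared subunit of the collagen, fibronectin and many of the laminin receptors, and it differed most between ages among the members tested. Its level was 28.9, 19.9, 23.9, 21.7 and 19.96 CPM in the 5 adult 16L birds. Adult 8L birds had 25.1, 6.28, 30.6, 5.58 and 24.8 CPM. In juvenile 16L birds it was 41.7, 0, 70.5 and 24.0 CPM, where the library at 0 had 91030 counts in all. Juvenile 8L birds had 172.6, 31.6, 24.2, 70.5 and 158.5 CPM. The adult 16L birds were close together, the adult 8L birds ran from 5.58 to 30.6 CPM, and the juveniles spread more widely. Of the 9 juveniles, 6 lay above every adult, 2 lay within the adult range and 1 was at 0.

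Over both photoperiods, ITGB1 was higher in juveniles by a log2 fold change of 1.52 (SE 0.505, edgeR quasi-likelihood test, unadjusted p = 0.00642), which did not pass the Benjamini-Hochberg adjustment over the 7165 genes tested (adjusted p = 0.155). It passed p under 0.01, the threshold the study used, as did 5.33% of all genes tested, and its adjusted p is also under 0.2, the false discovery rate the study allowed, as it was for 5.69% of all genes. No other member that passed the filter on low counts had an edgeR adjusted p under 0.2 on the sums in any of the 7 comparisons. LAMA4 and LAMC1 had one on the highest transcript, given below. Among members below the filter, edgeR without a filter gave ITGB2 an adjusted p of 0.116 for age over both photoperiods and 0.174 under 8L. It gave ITGA8, with no count in juvenile 16L birds, 0.155 for age under 16L, and ITGB3 is described below. Counted on the highest transcript, the difference was 1.55 (SE 0.391) and passed (adjusted p = 0.0194), in a fit that called 3.29% of 5466 genes. That call was lost without juvenile 16L replicate 3 (adjusted p = 0.0503) or without juvenile 8L replicate 5 (adjusted p = 0.0601), and held without each of the other 17 libraries. DESeq2 on the sums also passed it (adjusted p = 0.0175), limma-voom did not (adjusted p = 0.185), and the fit on the listed males alone gave 1.96 (adjusted p = 0.0218). The fit on males left out the listed females, at 0, 24.0 and 31.6 CPM. It kept the highest juveniles, at 172.6 and 158.5 CPM, and was not run without them.

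The 2 highest ITGB1 libraries were the 2 with the most bone matrix RNA. Without juvenile 8L replicates 1 and 5, the log2 fold change was 0.78 and the adjusted p was 0.521 on the sums, and 0.75 with an adjusted p of 0.313 on the highest transcript. The direction stayed the same in all 51 alternatives, with adjusted p between 0.00764 and 0.521. The sum of fibroblast genes (7 of 7 found, COL3A1, DCN, LUM and others) also differed with age. It was between 83.4 and 188.6 CPM in adults and between 325.2 and 904.0 CPM in 7 juveniles. Juvenile 8L replicates 1 and 5 had 2758 and 3934 CPM, so that the ages did not overlap. In the 7 juveniles most of the sum was COL3A1, at 269.2 to 808.8 CPM, against 19.6 to 100.5 CPM in adults. There DCN (4.85 to 97.3 CPM) and LUM (7.89 to 139.1 CPM) overlapped the adults (6.28 to 50.2 and 6.72 to 35.7 CPM). The part of the bone matrix and fibroblast RNA in the ITGB1 difference was not tested beyond the comparison without those birds.

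Within photoperiods, ITGB1 differed between ages by 2.24 under 8L (SE 0.702, unadjusted p = 0.00693, adjusted p = 0.450) and by 0.72 under 16L (SE 0.574, unadjusted p = 0.231, adjusted p = 0.826) on the log2 scale in edgeR. Under 8L the difference was 0.91 (adjusted p = 0.990) without juvenile 8L replicates 1 and 5. The interaction of age and photoperiod was -1.53 (SE 0.944, unadjusted p = 0.121, adjusted p = 0.969), so that the ages were not shown to differ more under 8L than under 16L. The 2 transcripts of ITGB1 did not carry the same counts. The smaller one made up 15.2% of the summed counts in adults and 17.7% in juveniles, 13.1% and 18.9% in the adult 16L and 8L groups and 12.2% and 19.02% in the juvenile ones, as a description of pooled counts.

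**Figure D3:**
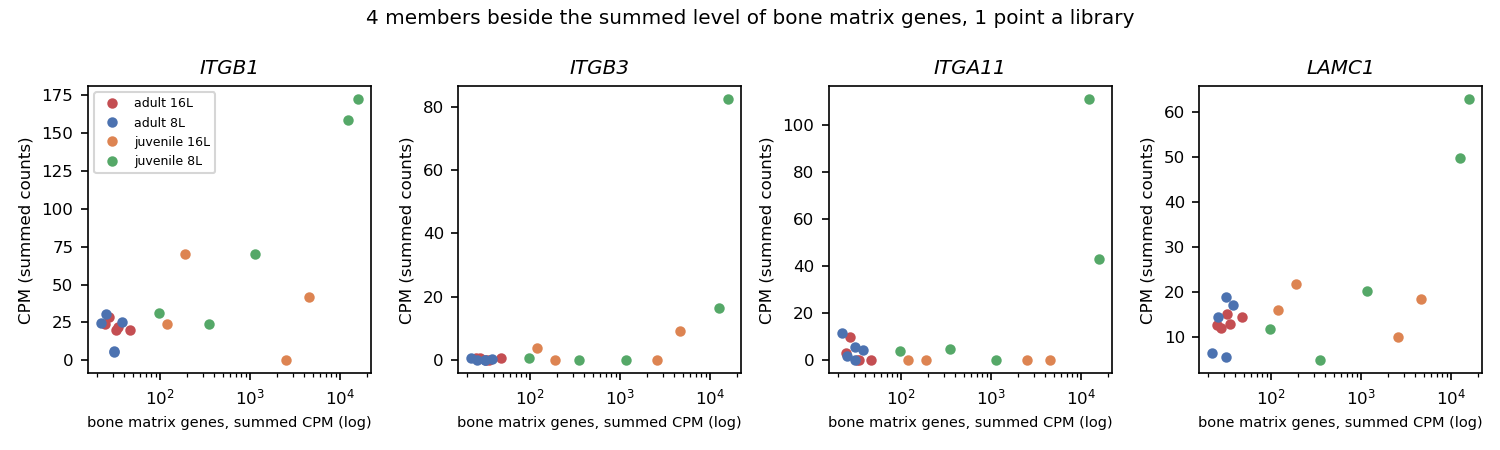
CPM of ITGB1, ITGB3, ITGA11 and LAMC1 (vertical axes) against the summed CPM of 10 bone matrix genes (horizontal log axis), 1 point for each of 19 libraries, coloured by group. The 2 points at the far right, juvenile 8L replicates 1 and 5, hold the highest values of ITGB1 (172.6 and 158.5 CPM), ITGB3 (82.4 and 16.6 CPM), ITGA11 (43.2 and 111.2 CPM) and LAMC1 (62.8 and 49.7 CPM).

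Among the alpha subunits, the laminin receptors are formed by ITGA3, ITGA6 and ITGA7. ITGA6, the partner of both beta 1 and beta 4, was read in every bird. Its levels were 33.6, 43.2, 27.2, 22.7 and 70.3 CPM in adult 16L birds and 35.8, 12.6, 28.1, 35.7 and 36.6 CPM in adult 8L birds. Juvenile 16L birds had 4.64, 80.6, 27.1 and 16.0 CPM, and juvenile 8L birds had 19.6, 37.1, 63.0, 10.1 and 2.37 CPM. All 4 groups overlapped, and the age difference over both photoperiods was -0.30 on the log2 scale (95% interval -1.23 to 0.62, edgeR adjusted p = 0.851). The lowest value of any bird was in juvenile 8L replicate 5, where ITGB1 was at 158.5 CPM.

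ITGA3, which pairs with beta 1 in epithelia, had 45 summed counts in 7 libraries, 29 of them in the deepest library, and 12 counts on the highest transcript. It was at 4.70, 0, 6.03, 0.987 and 0 CPM in adult 16L birds, at 0.534, 0, 0, 1.12 and 0.653 CPM in adult 8L birds, at 13.6 CPM in juvenile 16L replicate 3 alone of its group, and at 0 in all juvenile 8L birds. On the highest transcript the 13.6 CPM rest on 1 count. With 0 counts in the juvenile 8L group and 3 in the adult 8L group, an age difference under 8L was not detectable at this depth. Without a filter on low counts, edgeR gave unadjusted p = 0.00420 and adjusted p = 0.773 for 16L against 8L over both ages, and unadjusted p = 0.0142 and adjusted p = 0.712 in juveniles, where the 16L level is the 1 bird. ITGA7, known from muscle, had 2 counts in all, both in adults.

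The collagen receptors are formed by ITGA1, ITGA2 and ITGA11 with beta 1. ITGA1 (124 counts) and ITGA2 (153 counts) have 1 transcript each, lie close together on the Z chromosome of the quail RefSeq annotation (assembly Coturnix japonica 2.1) with 1 gene between them, and were read in 17 libraries each. ITGA1 ranged from 3.26 to 12.6 CPM in adults and from 0 to 15.7 CPM in juveniles. ITGA2 ranged from 4.79 to 25.1 CPM in adults and from 0 to 14.5 CPM in juveniles. On the highest-transcript counts, where both passed the filter, ITGA2 was lower in juveniles by 0.86 on the log2 scale (95% interval of the change -1.73 to 0.02, edgeR adjusted p = 0.367) and ITGA1 differed by -0.05 (interval -0.89 to 0.79, adjusted p = 0.987). The Z is a sex chromosome and females were only among the juveniles. No fit of these genes on the listed males is given, so the part of sex was not tested.

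ITGA11, the collagen receptor of fibroblasts and other mesenchymal cells, had 127 summed counts and 28 on the highest transcript. It was at 10.1, 0, 3.12, 0 and 0 CPM in adult 16L birds and at 4.27, 0, 1.70, 5.58 and 11.8 CPM in adult 8L birds. No juvenile 16L bird had a count, while juvenile 8L birds had 43.2, 3.95, 4.85, 0 and 111.2 CPM. Pooled over the juvenile 16L birds, 3 highest-transcript counts were worth 5.54 CPM, beside a pooled level of 10.1 CPM in juvenile 8L birds. The 2 high values are again replicates 1 and 5, and on the sums the other juvenile 8L birds lay within the range of the adults. On the highest transcript, juvenile 8L replicate 3 was at 8.32 CPM, which is 1 count, above the highest adult at 3.82 CPM. Of the 13 highest-transcript counts in the juvenile 8L group, 2 were in replicate 1 and 8 in replicate 5. These 2 birds also held the most fibroblast and bone matrix RNA, whose part in the ITGA11 values was not tested. The gene fell below the filter on low counts, and without a filter edgeR gave unadjusted p = 0.00117 and adjusted p = 0.586 for photoperiod in juveniles, and unadjusted p = 0.0472 and adjusted p = 0.792 without those 2 birds.

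Of the remaining alpha subunits, ITGA4 and ITGA9 bind fibronectin and VCAM1, ITGA8 binds nephronectin, and ITGAV forms the receptors of vitronectin and osteopontin. ITGA4 (72 counts) ranged from 0 to 8.51 CPM in adults and was read in 3 of the 5 juvenile 8L birds and in no juvenile 16L bird. ITGA8 (146 summed counts, 91 on the highest transcript) was read in all 10 adults, at 0.851 to 21.6 CPM, in 4 of 5 juvenile 8L birds, at 3.16 to 16.6 CPM, and in no juvenile 16L bird. The juvenile 16L libraries were shallow, and 3 highest-transcript counts pooled over them were worth 5.54 CPM. The pooled juvenile 8L level was 9.37 CPM for ITGA8 and 4.68 CPM for ITGA4. A photoperiod difference of ITGA4 in juveniles was therefore not detectable at this depth. Of the highest-transcript counts in adult 16L birds, 35 of 63 for ITGA8 and 21 of 38 for ITGA4 were in replicate 3, the deepest library. Without a filter the interaction of age and photoperiod for ITGA8 had unadjusted p = 0.00198 and adjusted p = 0.629 in edgeR. The highest juvenile values of ITGA8, 15.7 and 16.6 CPM, were in juvenile 8L replicates 1 and 5, and no fit without them is given. ITGAV (98 counts) ranged from 0 to 10.0 CPM in adults and from 0 to 20.1 CPM in juveniles, and ITGA9 (22 summed counts, 18 on the highest transcript) from 0 to 6.28 and from 0 to 10.1 CPM.

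**Figure D4:**
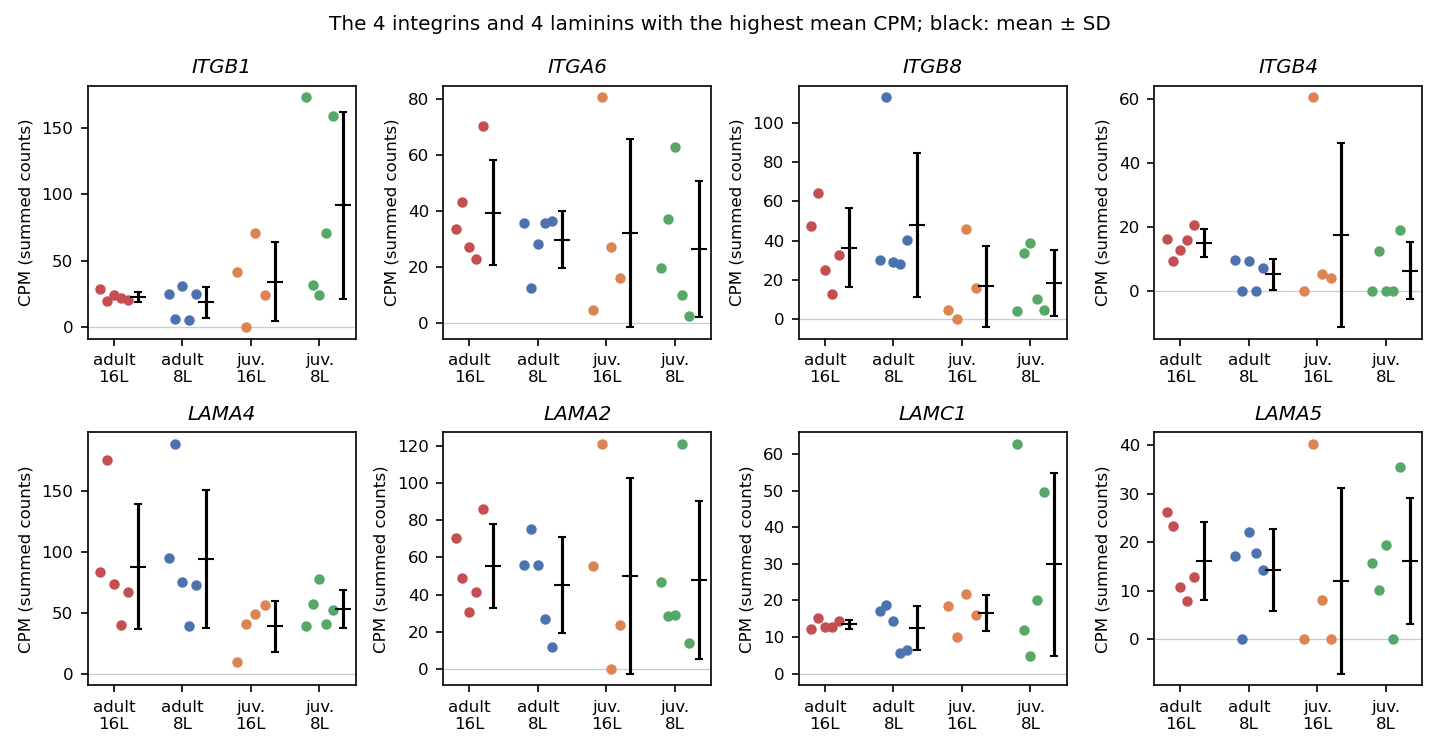
CPM in each bird (points) for the 4 integrins and 4 laminins with the highest mean CPM, by group, with the group mean ± SD in black (n = 5, 5, 4 and 5 birds from left to right). In ITGB1, juvenile 8L birds reach 172.6 CPM where adults stay at or under 30.6 CPM, and in LAMA4 the 2 highest values, 188.4 and 175.2 CPM, are adults. In every panel, ITGB1 and LAMA4 included, some juveniles lie within the adult range.

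Among the beta subunits other than beta 1, ITGB8, a partner of ITGAV that activates latent TGF-beta, was lower in juveniles on the sums without passing the test. Adult 16L birds had 47.7, 64.2, 24.9, 12.8 and 32.7 CPM, and adult 8L birds had 29.9, 113.0, 28.9, 27.9 and 40.5 CPM. In juvenile 16L birds the level was 4.64, 0, 46.1 and 16.0 CPM, and in juvenile 8L birds it was 3.92, 33.9, 38.8, 10.1 and 4.73 CPM. Of the 9 juveniles, 5 lay below every adult and 4 within the adult range. The age difference was -1.06 on the log2 scale (SE 0.517, edgeR unadjusted p = 0.0524, adjusted p = 0.386). The gene has 9 listed transcripts, of which the largest held 22.6% of the summed counts, and on the highest transcript it fell below the filter over all birds. The highest-transcript level of ITGB8 was 18.5 ± 17.8 CPM in adults (SD, n = 10) and 11.4 ± 6.89 CPM in juveniles (SD, n = 9), a difference within the spread between birds. The medians were 11.6 and 9.66 CPM. Pooled highest-transcript counts of 22 in juveniles and 108 in adults gave a ratio of 0.959 (exact 95% interval 0.577 to 1.53, counting error only), so no age difference showed on that measure.

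ITGB4, the beta subunit that joins ITGA6 in hemidesmosomes, had 209 summed counts over 8 transcripts and 32 on the highest. It was at 16.1, 9.34, 12.9, 15.8 and 20.8 CPM in adult 16L birds and at 9.62, 0, 9.36, 0 and 7.18 CPM in adult 8L birds. The lowest adult 16L value lay under the highest adult 8L values, so the groups overlapped at that end. The difference was 1.21 on the log2 scale (SE 0.556, edgeR unadjusted p = 0.0460, adjusted p = 0.999). Pooled highest-transcript counts of 19 and 7 gave a ratio of 1.65 (exact 95% interval 0.665 to 4.65, counting error only). Juvenile 16L birds had 0, 60.5, 5.42 and 4.00 CPM and juvenile 8L birds 0, 12.6, 0, 0 and 18.9 CPM, where the 60.5 CPM are 6 summed counts and 1 count on the highest transcript.

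ITGB3 encodes the beta subunit that pairs with ITGAV on osteoclasts, where it binds osteopontin, and with ITGA2B on thrombocytes. It has 1 transcript and 39 counts, of which 21 fell in juvenile 8L replicate 1 and 7 in juvenile 8L replicate 5. The level was 82.4, 0.789, 0, 0 and 16.6 CPM in juvenile 8L birds and 9.27, 0, 0 and 4.00 CPM in juvenile 16L birds. Adult 16L birds had 0.672, 0, 0.624, 0 and 0.798 CPM, and adult 8L birds had 0.534, 0, 0, 0 and 0.653 CPM. The 4 highest values were all in juveniles, and the rest of the juveniles lay within the adult range. ITGB3 stayed below the filter. In the fit without a filter, edgeR called it higher in juveniles over both photoperiods (unadjusted p = 0.000124, adjusted p = 0.0134, 364 genes called of 19529) and under 8L (unadjusted p = 0.000259, adjusted p = 0.0418, 135 of 18228). Without juvenile 8L replicates 1 and 5 neither call held, with a log2 fold change of 1.66 (adjusted p = 0.444) over both photoperiods and 0.55 (adjusted p = 0.933) under 8L. The call over both photoperiods was lost without juvenile 8L replicate 1 alone (adjusted p = 0.0912) and held without each of the other 18 birds, with adjusted p of at most 0.0456. Under 8L it was lost without any 1 of the 5 adults (adjusted p from 0.0617 to 0.107) or without juvenile 8L replicate 1 (adjusted p = 0.339).

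The 3 birds with the most ITGB3, juvenile 8L replicates 1 and 5 and juvenile 16L replicate 1, were also the 3 with the most summed osteoclast RNA over 6 genes found of 9 (ACP5, CTSK, MMP9 and others), at 396.2, 437.6 and 148.3 CPM, against at most 70.55 CPM in the other juveniles and 32.6 CPM in adults. MMP9 was at 0 in all 10 adults. TNFRSF11A, the receptor that drives osteoclast formation, made up 31.6 of the 32.6 CPM in adult 16L replicate 4. It was at 27.5 and 28.4 CPM in juvenile 8L replicates 1 and 5 and at 0 in juvenile 16L replicate 1. Thrombocyte genes (5 found of 7) summed to between 0 and 20.1 CPM in juveniles and between 0 and 9.14 CPM in adults, with GP9 and GP1BB at 0 in every juvenile. Juvenile 8L replicates 1 and 5 and juvenile 16L replicate 1 also held the most bone matrix RNA, at 15822, 12421 and 4599 CPM. ITGAV was at 0, 11.8 and 4.64 CPM in the same birds. Its highest level, 20.1 CPM, was in juvenile 8L replicate 4, where ITGB3 was at 0. The part of osteoclasts, thrombocytes or bone matrix RNA in the ITGB3 values was not tested.

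ITGB2, the leukocyte beta subunit, had 7 summed counts and 3 on the highest transcript. It was at 11.8 and 2.37 CPM in juvenile 8L replicates 1 and 2 and at 0.208 CPM in adult 16L replicate 3, and at 0 in the other 16 birds. The sum of leukocyte genes (8 found of 10) was highest in juvenile 8L replicates 1 and 5, at 266.8 and 184.5 CPM, against at most 61.8 CPM elsewhere. Juvenile 8L replicate 5 had no ITGB2 count. Not every gene followed that sum. IKZF1 was at 3.92 and 0 CPM in those 2 birds and at 49.7 CPM in adult 16L replicate 1. CD74 was at 7.85 and 16.6 CPM in them and at 50.4 CPM in juvenile 8L replicate 4. ITGB5 (86 summed counts, 44 on the highest transcript), a vitronectin receptor with ITGAV, ranged from 0 to 8.93 CPM in adults and from 0 to 15.7 CPM in juveniles. ITGB6, its epithelial relative, had 4 summed counts in 2 birds.

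Among the laminin alpha chains, LAMA4, a chain of the basement membranes of vessels, was read in every bird. Adult 16L birds had 83.3, 175.2, 73.6, 39.5 and 67.1 CPM and adult 8L birds had 95.1, 188.4, 74.9, 39.1 and 72.5 CPM. Juvenile 16L birds had 9.27, 40.3, 48.8 and 56.1 CPM and juvenile 8L birds had 39.2, 56.8, 77.6, 40.3 and 52.0 CPM. Of the 10 adults, 4 lay above every juvenile, and 1 juvenile lay below every adult. Over both photoperiods the age difference was -0.95 on the log2 scale (SE 0.375, edgeR unadjusted p = 0.0195, adjusted p = 0.252) on the sums and -0.86 (SE 0.335, unadjusted p = 0.0151, adjusted p = 0.177) on the highest transcript. The direction held in all 31 alternatives, with adjusted p from 0.104 to 0.401. Endothelial genes (10 of 10 found) summed to between 20.1 and 111.8 CPM in adults and between 4.64 and 151.4 CPM in juveniles. In some birds most of that sum was PECAM1, at 129.46 of 145.15 CPM in juvenile 8L replicate 1 and 75.9 of 94.6 CPM in adult 16L replicate 2. The part of endothelial cells in the LAMA4 values was not tested.

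LAMA2, the chain of muscle and nerve basement membranes, was at 70.5, 49.1, 30.6, 41.4 and 86.2 CPM in adult 16L birds and at 56.1, 75.4, 56.1, 26.8 and 11.8 CPM in adult 8L birds. Juvenile 16L birds had 55.6, 120.9, 0 and 24.0 CPM and juvenile 8L birds had 47.1, 28.4, 29.1, 120.8 and 14.2 CPM. Each 120 CPM value is 12 summed counts, or 2 on the highest transcript. The age difference was -0.13 on the log2 scale (95% interval -1.19 to 0.94, edgeR adjusted p = 0.958), and its sign turned with upper-quartile factors. LAMA5, a chain of epithelial and vessel basement membranes, was at 26.2, 23.4, 10.8, 7.89 and 12.8 CPM in adult 16L birds, 17.1, 0, 22.1, 17.9 and 14.4 CPM in adult 8L birds, 0, 40.3, 8.13 and 0 CPM in juvenile 16L birds and 15.7, 10.3, 19.4, 0 and 35.5 CPM in juvenile 8L birds. The groups overlapped, and the age difference was -0.24 (interval -1.36 to 0.88, adjusted p = 0.909).

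LAMA3, an epithelial chain that joins LAMB3, had 91 counts and was read in all 10 adults, at 2.61 to 18.8 CPM, and in 6 of 9 juveniles, at up to 9.70 CPM. LAMB3 was nearly absent, with 6 summed counts in 3 birds. LAMA1, best known from early embryos, had 35 counts, at 0 to 5.10 CPM in adults and in 2 juveniles at 4.00 and 9.70 CPM.

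LAMC1, the gamma chain of most laminins, has 1 transcript, so its counts are not repeated. It was at 12.1, 15.2, 12.7, 12.8 and 14.4 CPM in adult 16L birds and at 17.1, 18.8, 14.5, 5.58 and 6.53 CPM in adult 8L birds. Juvenile 16L birds had 18.5, 10.1, 21.7 and 16.0 CPM and juvenile 8L birds had 62.8, 11.8, 4.85, 20.1 and 49.7 CPM. The highest juveniles were the same 2 birds as for ITGB1, and 4 of 9 juveniles lay above every adult. The age difference over both photoperiods was 0.90 on the log2 scale (SE 0.413, edgeR unadjusted p = 0.0401, adjusted p = 0.351) on the sums and 0.96 (SE 0.363, unadjusted p = 0.0127, adjusted p = 0.160) on the highest-transcript table. Without juvenile 8L replicates 1 and 5 it was 0.16 (adjusted p = 0.925). Under 8L the difference was 1.35 (SE 0.654, unadjusted p = 0.0591, adjusted p = 0.620) and it became -0.09 without those birds.

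LAMB1 (70 counts) and LAMB2 (41 counts) are the common beta chains. LAMB1 ranged from 0 to 5.84 CPM in adults and from 0 to 16.6 CPM in juveniles, and without a filter on low counts edgeR gave juveniles a log2 fold change of 0.78 over adults (unadjusted p = 0.203, adjusted p = 0.5997). LAMB2 ranged from 0 to 4.70 CPM in adults, and in juveniles it was read in 3 birds, at 18.5, 5.42 and 0.789 CPM. LAMC3 (69 summed counts, 23.5 on the highest transcript) ranged from 0 to 8.06 CPM in adults and from 0 to 29.1 CPM in juveniles.

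LAMB4, a beta chain that lies next to LAMB1 in the RefSeq annotation of the quail, was counted only in 16L birds. It was at 0.672, 0, 2.91, 0 and 2.40 CPM in adult 16L birds and at 0, 0, 2.71 and 24.0 CPM in juvenile 16L birds, and at 0 in all 10 birds under 8L. The 25 summed counts were 10 on the highest transcript, 7 in adults and 3 in juveniles. Of the 7 adult counts, 5 were in replicate 3, the deepest library. The gene stayed below the filter. Without one, edgeR on the summed counts gave unadjusted p = 0.000422 and adjusted p = 0.424 for photoperiod over both ages. That test took the repeated counts of a read as separate counts. Of the 9 birds under 16L, 5 had a count.

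Over all members, photoperiod moved none past the adjusted threshold. In adults, edgeR called 0 of the 10 members tested, and 1 (ITGB4) had an unadjusted p under 0.05, in a fit that called 0.0267% of 7478 genes. In juveniles, 2 members were tested (ITGB1 and LAMA4) and 0 were called, where 0% of 2405 genes were called, and 0 had p under 0.05. ITGB1 stood at -1.29 for 16L against 8L in juveniles (SE 0.880, edgeR unadjusted p = 0.173, adjusted p = 0.999) and LAMA4 at -0.42 (SE 0.596, unadjusted p = 0.5003, adjusted p = 0.999). Over both ages, 0 of 8 members were called and 0 had p under 0.05, where 0.0140% of 7165 genes were called. The interaction of age and photoperiod called 0 of 8 members, with 0 at p under 0.05, and 0% of 7165 genes. DESeq2 and limma-voom called 0 members in each of these 4 comparisons.

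For age, edgeR called 0 of 8 members under 16L, with 0 at p under 0.05, where 1.31% of 6641 genes were called, and DESeq2 and limma-voom also called 0. Under 8L it called 0 of 7, with ITGB1 at p under 0.05, where 0.157% of 5106 genes passed the adjusted threshold and 2.10% had p under 0.01. DESeq2 called 1 there (ITGB1) and limma-voom 0. Over both photoperiods it called 0 of 8, with 3 (ITGB1, LAMA4 and LAMC1) at p under 0.05, where 1.95% of 7165 genes were called, and DESeq2 called 1 (ITGB1) and limma-voom 0. The median log2 fold change of the 8 members was -0.19, beside -0.16 over all genes tested. With upper-quartile factors these medians were 0.06 and -0.02. The comparisons share birds and are not independent of each other.

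**Figure D5:**
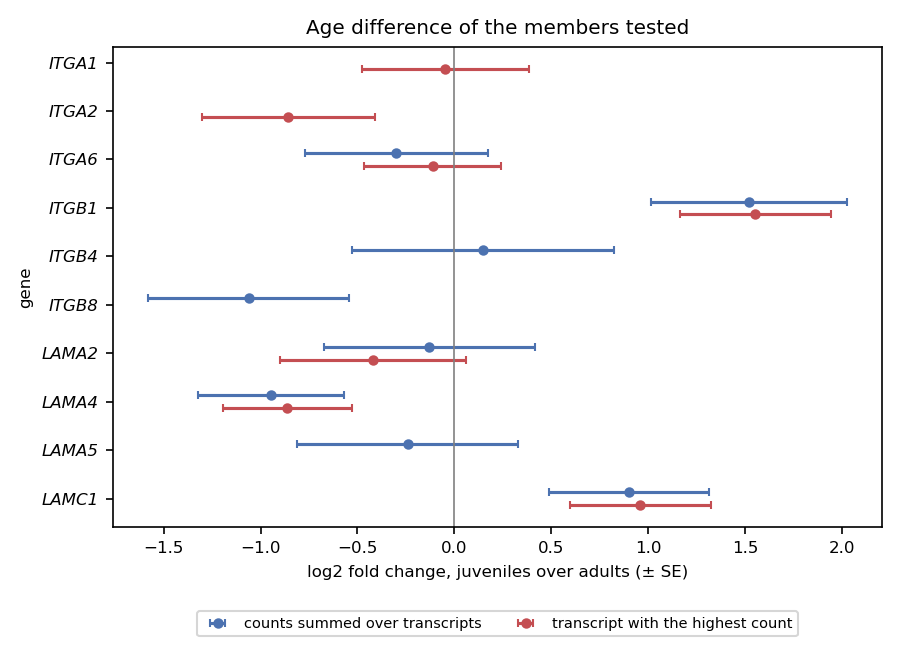
Log2 fold change of juveniles over adults, both photoperiods together, with its SE, for the members that passed the filter on summed counts (blue, 8 members) or on the highest transcript (red, 7 members). ITGB1 lies at 1.52 and 1.55, LAMC1 at 0.90 and 0.96 and LAMA4 at -0.95 and -0.86, and only ITGB1 on the highest transcript passed the adjusted threshold (adjusted p = 0.0194).

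The genes around integrins and laminins were read from 4 lists, and their counts stand beside 140 genes called of all 7165 tested (1.95%), and 149 of 9030 without juvenile 8L replicates 1 and 5. Ligands of integrins other than laminin differed most: of 31 listed and 28 in the table, 17 were tested for age over both photoperiods, and 9 rose and 0 fell in juveniles at an adjusted p under 0.05, with a median log2 fold change of 3.03. COL1A1, a chain of type I collagen, was at 1.13 ± 1.25 CPM in adults (SD, n = 10) and 1546 ± 2133 CPM in juveniles (SD, n = 9), with an edgeR adjusted p of 2.14e-05. SPP1, which encodes osteopontin, was at 0.296 ± 0.480 and 995.7 ± 1498 CPM (adjusted p = 4.84e-05), and COL3A1, a chain of type III collagen, at 68.8 ± 27.2 and 889.6 ± 843.0 CPM (adjusted p = 5.29e-05). Of the 31 listed genes, 8 also stand in the lists of bone, cartilage or fibroblast markers. Without juvenile 8L replicates 1 and 5, 5 of 19 ligands were called, all higher, with a median of 1.60. These 5 were COL1A1, COL1A2, COL3A1, SPP1 and IBSP, each of which also stands in those marker lists. No ligand outside the marker lists was called there.

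Basement membrane partners of laminin moved in both directions. Of 21 listed and found, 14 were tested, 2 rose and 1 fell in juveniles, with a median of 0.21. COL4A4, a collagen IV chain of specialised basement membranes such as that of the kidney glomerulus, fell from 13.97 ± 8.03 CPM in adults (SD, n = 10) to 0.389 ± 0.909 CPM in juveniles (SD, n = 9, edgeR adjusted p = 0.00247), and remained lower without the 2 bone-rich birds (adjusted p = 0.00857). COL4A1, the common collagen IV chain, rose from 26.0 ± 16.3 to 107.2 ± 82.0 CPM (adjusted p = 0.0348) and SPARC, a collagen-binding protein also abundant in bone, from 10.1 ± 4.37 to 54.4 ± 51.0 CPM (adjusted p = 0.0107). Without those birds, COL4A1 and SPARC had adjusted p of 0.142 and 0.143, and 0 partners rose and 1 fell of 17 tested.

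Laminin receptors outside the integrin family gave 1 gene that rose and 0 that fell of 15 tested (19 listed, 16 found), with a median of -0.08. It was SDC2, a heparan sulfate proteoglycan, at 7.61 ± 2.60 CPM in adults (SD, n = 10) and 56.5 ± 76.5 CPM in juveniles (SD, n = 9, edgeR adjusted p = 0.0206), and without the 2 bone-rich birds its adjusted p was 0.199. DMD, which encodes dystrophin, had -0.88 (adjusted p = 0.170). The proteins that link integrins to actin gave 0 called of 16 tested (33 listed, 28 found), with a median of -0.06. LIMS1, a partner of integrin-linked kinase, had -1.98 (adjusted p = 0.0925) and ACTN1, an actin crosslinker, had 1.13 (adjusted p = 0.169). For photoperiod in adults, in juveniles and over both ages, and for the interaction, 0 genes of the 4 lists were called by edgeR.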

How the data were processed

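Pituitary RNA was read as PCR-amplified, barcoded cDNA on an Oxford Nanopore GridION, adapters and short reads were removed, and the submitters' notes name minimap2 and Salmon, without versions. The authors deposited estimated counts per transcript, not normalized, with a gene symbol for each of 63260 transcripts. At least 99.3% of values in a library were whole (tolerance 1e-06). Reads were aligned to a quail assembly, according to the methods of the paper. None of the transcript identifiers matched the quail RefSeq table at hand (0 matches), so the annotation behind the counts is not given in the sources used here and no coordinates are printed. All 29 members matched it by symbol. Transcripts were summed per symbol and rounded to whole numbers. The columns of the 19 birds were matched by their labels, and 0 other sample columns were present.

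Models used edgeR 4.0.16 (TMM, estimateDisp, glmQLFit with legacy=TRUE, glmQLFTest, R 4.3.3) after filterByExpr with a minimum count of 10 and total of 15. A gene was called at a Benjamini-Hochberg adjusted p under 0.05 over all genes tested, and p under 0.01 and a false discovery rate of 0.2, which the study used, are given too. The standard error came from the quasi-likelihood F. The 95% intervals of log2 fold changes used it with normal quantiles, so they are narrower than the F test implies. Age comparisons over both photoperiods had photoperiod as a term. The script was tested on simulated data. Intervals on pooled counts are exact (95%). Alternatives were DESeq2 1.42.0, limma-voom (3.58.1), other factors and filters, blocks, libraries left out and the highest transcript. Fits without a filter used the summed counts, in which reads can repeat, and were not run on the highest transcript. Python 3.11.15 drew the figures. Every member is named except 1, which is not reported here, with values in every bird for those at p under 0.01, the 4 integrins and 4 laminins of highest mean CPM, and ITGA3, ITGA11, LAMB4, ITGB1, ITGB2 and ITGB3, which the study's functional tables name. Members, lists and rules were chosen with earlier results of these data known.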

Additional observations from a re-analysis of the deposited data

Results flagged for a closer look

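In groups of 4 or 5 birds, 7 of 46 groups of the members named with values held a bird that lay far from the rest by Dixon's test at 95%. The chance rate of that test, about 1 in 20 groups, assumes normal values. With sparse counts, a bird with a count in a group otherwise at 0 is always flagged. The 7 flags can therefore not be set against that rate. ITGB8 was at 113.0 CPM in adult 8L replicate 2 (18 summed counts), against 27.9 to 40.5 CPM in the others. ITGB4 was at 60.5 CPM in juvenile 16L replicate 2 (6 summed counts), against 0 to 5.42 CPM. ITGA3 was at 13.6 CPM in juvenile 16L replicate 3 (5 summed counts) and LAMB4 at 24.0 CPM in juvenile 16L replicate 4 (6 summed counts), against 0 and at most 2.71 CPM. ITGB2 was at 0.208 CPM in adult 16L replicate 3 (1 count), against 0, and at 11.8 CPM in juvenile 8L replicate 1 (3 summed counts), against at most 2.37 CPM. ITGB3 was at 82.4 CPM in juvenile 8L replicate 1 (21 counts), against at most 16.6 CPM. On the highest transcript the 5 values of ITGB4, ITGA3, LAMB4 and ITGB2 rest on 1 or 2 counts each, and ITGB3 on 21. No interaction of age and photoperiod was called for a member.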

How the results depend on the processing

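The count of members called by edgeR stayed at 0 in 5 of the 7 comparisons under every alternative run. It became 1 for age under 8L with DESeq2 (ITGB1) and with no filter (ITGB3), and 1 for age over both photoperiods with DESeq2, on the listed males, on the highest transcript (ITGB1 in these) and with no filter (ITGB3). The highest transcript was added after seeing the data. Among named members the direction of the age difference turned for LAMA2 with upper-quartile factors (adjusted p = 0.939) and for ITGB4 with limma-voom (0.898), no filter (1.000), the listed males (0.714), without the libraries under 200000 counts (0.970) and without juvenile 8L replicates 1 and 5 (0.991). With each bird left out in turn, adjusted p ran from 0.783 to 0.999 for LAMA2, which turned without juvenile 16L replicate 3 (0.986), and from 0.854 to 0.992 for ITGB4, which turned without adult 8L replicate 4, juvenile 16L replicate 2 and juvenile 8L replicates 2 and 5. It also turned for LAMC1 under 8L without those birds (1.000) and for LAMA4 between photoperiods in juveniles without the libraries under 200000 counts (0.996).

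Replicate numbers recur across groups. Over 27 pairs of same-numbered birds, the correlation of their deviations from group means ran from -0.104 to 0.094 over 7165 genes, with 0 above 0.1, so the numbers did not pair the birds. With the replicate block the members called stayed at 0 in each comparison, ITGB1 had an adjusted p of 0.210 and ITGB4 turned direction (0.901), while all calls for age over both photoperiods went from 140 to 98.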
